A study of Mus musculus with 6 samples.

Results

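Genes encoding respiratory complex III, respiratory complex IV and ATP synthase were measured in sorted mouse hematopoietic stem cells (HSC), which sustain all blood lineages, of 2 genotypes. The genes were chosen by symbol, as all listed genes beginning with Uqcr, with Cox followed by a digit from 4 to 8, or with Atp5, leaving out pseudogene names with -ps. This gave 43 of the 24062 genes listed. Of these, 8 encode complex III subunits, 17 complex IV subunits and 15 ATP synthase subunits, and 3 (Cox7a2l, Atp5s and Atp5sl) carry such a name without encoding a structural subunit of the 3 complexes. The label given to the set therefore fits 40 of its 43 genes. The mitochondrially encoded subunits and Cyc1, the cytochrome c1 of complex III, are not chosen by these names. The mitochondrially encoded ones were not analysed here.

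The CDKO mice were Nr4a1 fl/fl; Nr4a3-/-; Rosa26-ERt2 and the control mice Nr4a1 fl/fl; Nr4a3-/-, so all animals lacked Nr4a3, a nuclear receptor gene, from birth and carried floxed alleles of its relative Nr4a1. As background, a construct named in this way is a Cre recombinase that is active in most tissues once tamoxifen is given. All mice received tamoxifen (120 mg per kg daily, 4 injections) with the sort on day 5. There were 3 CDKO and 3 control libraries, each made from 3 to 5 pooled mice. The age of the mice and the sort markers are not given in the sources used here. The construct and the loss of Nr4a1 came in the same pools, so their effects cannot be told apart. P-values measure the spread between pools only.

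Libraries held 32863805 to 42772261 counted reads, and values are reads per 1000000 counted (CPM). At this depth a count of 0 allows a level of at most 0.0701 to 0.0913 CPM, depending on the library (3 counts, counting error only). Nr4a1 had 8.52, 9.76 and 9.12 CPM in the CDKO pools, against 15.2, 13.4 and 12.9 CPM in the control pools (log2 difference -0.55, SE 0.12, limma adjusted p = 0.00204). Its reads are counted over the whole gene, so the floxed part is not seen apart. Nr4a3 had no read in any library. All 12 HSC marker genes were measured, with a summed level of 4573 to 4767 CPM in CDKO and 4990.1 to 5235 CPM in control pools. Summed markers of neutrophils, of basophils and mast cells and of erythroid cells were far lower in the CDKO pools, while those of lymphocytes were slightly higher. The 10 neutrophil markers summed to 15.5 to 89.6 CPM in CDKO and 799.8 to 1048 CPM in control pools. The 6 basophil and mast cell markers summed to 6.64 to 10.6 CPM in CDKO and 199.9 to 259 CPM in control pools. Of these, 5 were lower in every CDKO pool. Gzmb went the other way, with 3.59, 2.77 and 3.02 CPM in the CDKO pools and 0 CPM in each control pool. The 12 erythroid markers summed to 43.1 to 49.1 CPM in CDKO and 202 to 224 CPM in control pools. The 8 lymphocyte markers summed to 60.2 to 63.3 CPM in CDKO and 47.7 to 53.8 CPM in control pools. No read was counted for 5 of the erythroid markers (Hba-a1, Hba-a2, Hbb-bt, Hbb-b1 and Hbb-b2) or for 3 of the lymphocyte markers (Cd3e, Cd3g and Ms4a1). The part of these cells in the differences described next was not tested, and in bulk RNA fewer cells of a type and less RNA per cell cannot be told apart.

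Complex III takes electrons from ubiquinol and passes them to cytochrome c, complex IV passes them on to oxygen, and both move protons across the inner mitochondrial membrane. ATP synthase lets the protons flow back through a rotating ring in the membrane and uses that motion to make ATP. Quiescent HSC are known for a low reliance on this pathway, and its use increases when they divide and differentiate. The nuclear genes studied here encode the parts of these complexes that are made in the cytosol and imported.

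Most of the measured genes were modestly higher in CDKO pools. Of the 43 genes, 39 had a mean of at least 10 reads over the 6 libraries and were tested. In the test across all genes (limma on log2(CPM + 1), adjusted p under 0.05), 23 of the 39 rose and 2 fell, against 31.1% of all 13732 tested genes that rose, 35.2% that fell and 66.2% that did either. The median log2 difference, CDKO minus control, was 0.23 for the 39 genes and -0.02 over all genes tested. Differences ran from -0.32 for Cox7a2l to 0.85 for Uqcrq, and only Uqcrq also changed by at least 1.5-fold, against 12.0% of all tested genes that rose by that much and 17.1% that fell by it. All 3 CDKO values lay above all 3 control values for 24 of the 39 genes, against 33.4% of all tested genes, and below them for 4, against 37.2%. In all, 28 genes had groups that did not overlap, against 70.7% of all tested genes. By complex, 5 of 8 complex III genes rose and 1 fell, 6 of 13 tested complex IV genes rose and none fell, and 11 of 15 ATP synthase genes rose and none fell. The median log2 differences were 0.17, 0.19 and 0.31, in that order. These counts describe the sets and were not tested against each other. In the authors' deposited table the same 23 genes were higher and the same 2 lower at an adjusted p under 0.05, against 31.6% and 33.3% of the genes with an adjusted p there. Both results rest on the same libraries.

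**Figure D1:**
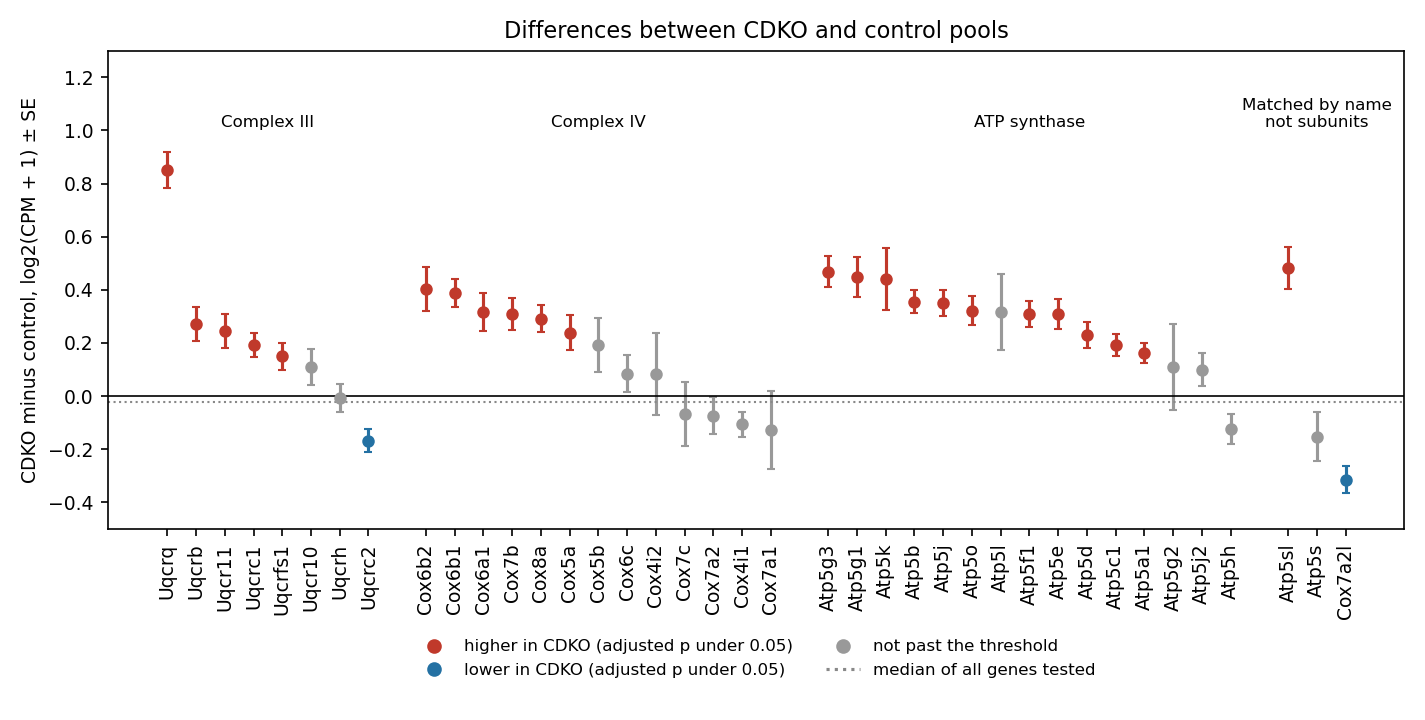
Difference of each tested gene between CDKO and control pools, as log2(CPM + 1) with its standard error (vertical axis), by complex and in falling order (horizontal axis). Red marks the 23 genes that rose, blue the 2 that fell and grey the 14 that did not pass, and the dotted line is the median of all genes tested at -0.02.

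Summed over its genes, each complex had a higher total in every CDKO pool than in any control pool. Complex III genes summed to 1337, 1368 and 1409 CPM in the CDKO pools, against 1244, 1200.3 and 1269 CPM in the control pools. Complex IV genes summed to 1496, 1453 and 1447 CPM in the CDKO pools, against 1364, 1234 and 1347 CPM in the control pools. ATP synthase genes summed to 4129, 4037 and 3977 CPM in the CDKO pools, against 3454, 3258 and 3383 CPM in the control pools. The ratio of the group means was 1.11 for complex III, 1.11 for complex IV and 1.20 for ATP synthase. Atp5a1 and Atp5b together held 56.9% to 57.5% of the ATP synthase sum in CDKO and 56.6% to 57.6% in control pools. Without this pair the remaining 41 of the 43 genes summed to 4733 to 4771 CPM in CDKO and 4027 to 4294 CPM in control pools. That sum spans the whole set, including Cox7a2l, Atp5s and Atp5sl, and is not limited to ATP synthase. Within ATP synthase, the 4 peripheral stalk genes summed to 617 to 639 CPM in CDKO and 504 to 540 CPM in control pools. The 6 genes of its membrane part summed to 311 to 336 CPM in CDKO and 234 to 260 CPM in control pools. In complex III, Uqcrc1 alone had a mean of 568 of 1371 CPM in CDKO and 497 of 1238 CPM in control pools.

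**Figure D2:**
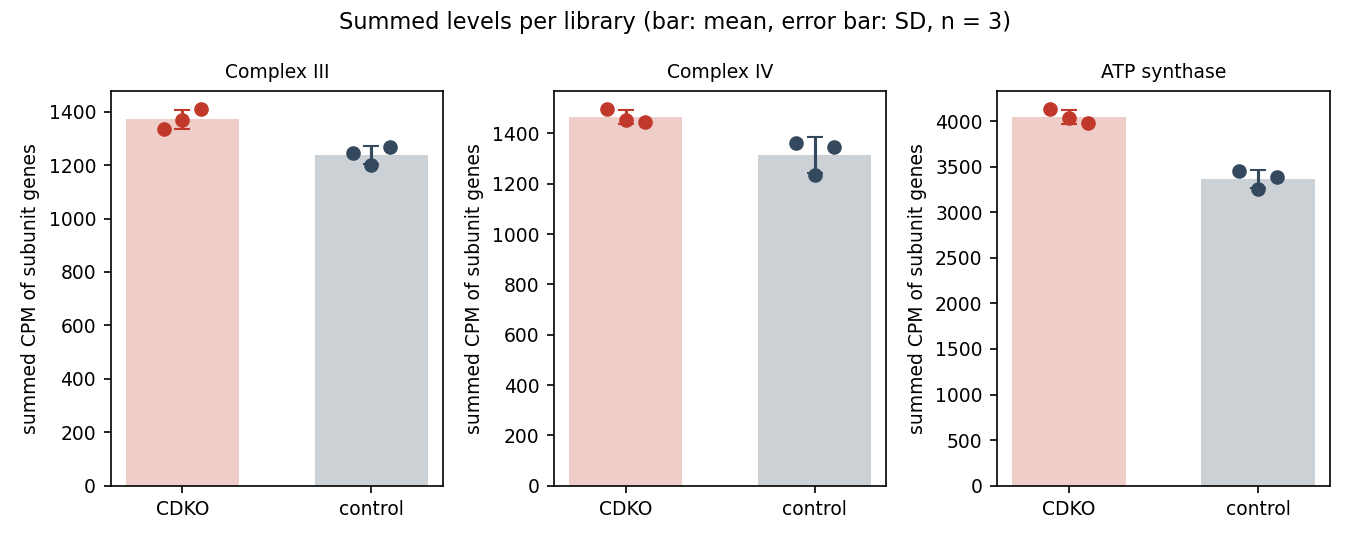
Summed CPM of the subunit genes of complex III, complex IV and ATP synthase in each library (points), with the mean (bar) and SD (error bar) of 3 CDKO and 3 control pools. The CDKO points lie above all control points in each panel, between 3977 and 4129 CPM against 3258 to 3454 CPM for ATP synthase.

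Promoters of respiratory genes are known for sites of NRF1 and of ETS factors such as GABPA, the factors that link nuclear and mitochondrial gene expression. RefSeq promoter sequence (GRCm38.p6, 250 bases before to 50 after a start) was matched for 34 of the 43 genes. The NRF1 letters GCGCA, any base and GCGC, read on both strands like the other motifs here, were in 8 of these 34 (23.5%), against 5.19% of 27025 genes with a promoter and 11.1% of 10254 tested genes matched by symbol. The ETS letters CCGGAAG were in 10 (29.4%), against 9.93% and 19.1%, and the YY1 letters AAGATGGC in 4 (11.8%), against 3.19% and 5.04%. An NRF1 match was present in 6 of the 20 matched genes that rose and in 2 of the 11 that were tested and did not pass, and an ETS match in 7 of the 20 and 3 of the 11. The gene that fell and had a promoter, Cox7a2l, held none of the 3. These shares are descriptions of letters and say nothing about binding. Below are a promoter from each complex whose gene rose and holds an NRF1 match, and the promoter of Atp5h, which holds an NRF1 and an ETS match and whose gene did not pass the test. Each is written in the direction of transcription, with capitals for the matched NRF1 and ETS letters on either strand, which do not overlap here, and none holds the YY1 letters.
Uqcrc1 (chr9:108936398-108936697, plus strand): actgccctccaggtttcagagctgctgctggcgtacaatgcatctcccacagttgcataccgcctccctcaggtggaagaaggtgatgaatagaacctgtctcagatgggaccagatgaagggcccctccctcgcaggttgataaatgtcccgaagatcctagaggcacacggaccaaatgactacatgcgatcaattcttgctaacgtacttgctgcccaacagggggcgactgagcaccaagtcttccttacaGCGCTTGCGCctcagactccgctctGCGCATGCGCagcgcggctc
Cox6a1 (chr5:115348909-115349208, minus strand): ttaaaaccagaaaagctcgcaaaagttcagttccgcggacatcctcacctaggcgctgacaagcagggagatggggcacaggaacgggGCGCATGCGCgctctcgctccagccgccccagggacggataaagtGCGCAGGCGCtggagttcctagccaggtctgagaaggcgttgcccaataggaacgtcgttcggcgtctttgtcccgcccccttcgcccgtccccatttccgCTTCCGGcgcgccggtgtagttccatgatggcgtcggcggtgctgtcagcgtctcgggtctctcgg
Atp5g3 (chr2:73911277-73911576, minus strand): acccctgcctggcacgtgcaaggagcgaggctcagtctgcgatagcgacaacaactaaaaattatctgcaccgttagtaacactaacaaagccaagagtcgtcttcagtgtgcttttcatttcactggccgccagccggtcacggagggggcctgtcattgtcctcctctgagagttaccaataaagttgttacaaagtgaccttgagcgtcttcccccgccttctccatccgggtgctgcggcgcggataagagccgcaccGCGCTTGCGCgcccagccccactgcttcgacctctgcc
Atp5h (chr11:115419870-115420169, minus strand): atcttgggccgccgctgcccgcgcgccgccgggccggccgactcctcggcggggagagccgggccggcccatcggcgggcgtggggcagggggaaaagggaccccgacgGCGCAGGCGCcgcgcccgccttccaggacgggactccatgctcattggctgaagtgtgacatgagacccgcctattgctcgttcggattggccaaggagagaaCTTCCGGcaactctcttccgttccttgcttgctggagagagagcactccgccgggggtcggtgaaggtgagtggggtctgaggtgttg

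Within complex III the subunits did not move alike. Uqcrq, a small subunit near the ubiquinone-binding cytochrome b, showed the largest rise of the 39 tested genes (mm10 chromosome 11, 53427922 to 53430831). It had 85.5, 79.9 and 85.6 CPM in CDKO pools 1 to 3, against 49.3, 42.6 and 46.2 CPM in control pools 1 to 3. Its CDKO values were 1.82 times the control values on average and the groups were far apart (log2 difference 0.85, SE 0.07, limma adjusted p = 1.55e-06). Uqcrb, another small subunit that contacts cytochrome b, had 75.8, 73.9 and 75.5 CPM in the CDKO pools, against 61.7, 57.9 and 66.6 CPM in the control pools (log2 difference 0.27, SE 0.06, limma adjusted p = 0.00261). Uqcr11, a small membrane subunit, had 71.1, 69.9 and 73.1 CPM in the CDKO pools, against 59.4, 56.3 and 64.5 CPM in the control pools (log2 difference 0.25, SE 0.06, limma adjusted p = 0.00516). Both were higher in every CDKO pool, at 1.21 and 1.19 times the control mean. Uqcrh, the hinge protein that contacts cytochrome c1, had 137, 152 and 142 CPM in the CDKO pools, against 144, 139 and 149 CPM in the control pools and missed the threshold (limma adjusted p = 0.92). Uqcr10, the other small membrane subunit, had 90.5, 85.6 and 88.98 CPM in the CDKO pools, against 87.1, 73.8 and 85.3 CPM in the control pools and missed it too (limma adjusted p = 0.174), with overlapping groups for both genes. Uqcr10 passed once GC content and length were corrected for (log2 difference 0.19, limma adjusted p = 0.0232).

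The core subunits of complex III went in opposite directions. Uqcrc1, core protein 1 (chromosome 9, 108936633 to 108949623, in the plus orientation), had 543, 562 and 600.0 CPM in CDKO pools 1 to 3, against 497, 488 and 505 CPM in control pools 1 to 3 (log2 difference 0.19, SE 0.04, limma adjusted p = 0.00244). Uqcrc2, core protein 2 (chromosome 7, 120635176 to 120659524), had 177, 181 and 175 CPM in CDKO pools 1 to 3, against 205, 196 and 197 CPM in control pools 1 to 3 (log2 difference -0.17, SE 0.04, limma adjusted p = 0.00428), and was the one structural subunit gene in the set that fell. Groups did not overlap for either gene. The ratio of Uqcrc1 to Uqcrc2 reads was 3.08, 3.11 and 3.44 in the CDKO pools, against 2.43, 2.49 and 2.57 in the control pools. The ratio of Uqcrq to Uqcrc2 was 0.484, 0.442 and 0.490 in the CDKO pools, against 0.240, 0.217 and 0.235 in the control pools. The proteins of Uqcrc1 and Uqcrc2 sit side by side in the matrix-facing part of the complex. Uqcrfs1, the Rieske iron-sulfur protein that carries electrons to cytochrome c1, had 158, 164 and 169 CPM in CDKO pools 1 to 3, against 141, 147 and 155 CPM in control pools 1 to 3 (log2 difference 0.15, SE 0.05, limma adjusted p = 0.0204). Its call was lost without control pool 1, control pool 2, CDKO pool 2 or CDKO pool 3 (limma adjusted p from 0.0511 to 0.0803 without each, and down to 0.000429 in the other fits), with a log2 difference of 0.12 to 0.15 in these fits.

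In complex IV the genes that rose were the 6a, 6b, 7b, 8a and 5a subunits, which surround the catalytic core encoded in mitochondrial DNA. Cox6b1, the subunit on the outer face where cytochrome c docks, had 144, 139 and 143 CPM in CDKO pools 1 to 3, against 106, 103 and 116 CPM in control pools 1 to 3 (log2 difference 0.39, SE 0.05, limma adjusted p = 6.84e-05). Cox8a, a small membrane subunit, had 216, 217 and 209.9 CPM in the CDKO pools, against 184, 164 and 178 CPM in the control pools (log2 difference 0.29, SE 0.05, limma adjusted p = 0.000334). Cox7b, another small membrane subunit, had 88.5, 80.4 and 81.4 CPM in the CDKO pools, against 67.7, 63.8 and 69.9 CPM in the control pools (log2 difference 0.31, SE 0.06, limma adjusted p = 0.000938). All 3 were higher in every CDKO pool, at 1.31, 1.22 and 1.24 times the control mean. Cox6a1, the widely expressed form of subunit 6a, had 308, 285 and 257 CPM in the CDKO pools, against 247, 207 and 228 CPM in the control pools (log2 difference 0.32, SE 0.07, limma adjusted p = 0.00244), with the lowest CDKO pool just above the highest control pool. Cox5a, a matrix subunit, had 149.9, 133 and 132 CPM in the CDKO pools, against 127, 111 and 114 CPM in the control pools (log2 difference 0.24, SE 0.07, limma adjusted p = 0.00771), also with little space between the groups.

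The other complex IV subunits did not pass the test. Cox4i1, subunit 4, the largest of the nuclear-encoded subunits, had 349.7, 373 and 383 CPM in CDKO pools 1 to 3, against 398, 379.6 and 412 CPM in control pools 1 to 3 (log2 difference -0.11, SE 0.05, limma adjusted p = 0.0678). It was the complex IV gene with the most reads, and its mean lay below control while the genes just described lay above it. It passed as lower in 5 of 17 alternatives, among them DESeq2 (adjusted p = 0.0479) and quantile normalization (limma adjusted p = 0.00861; 0.00861 to 0.496 over all its alternatives). The ratio of Cox6b1 to Cox4i1 reads was 0.411, 0.372 and 0.374 in the CDKO pools, against 0.266, 0.272 and 0.281 in the control pools. Cox5b, a matrix subunit that binds zinc, had 28.1, 23.7 and 25.9 CPM in the CDKO pools, against 22.2, 20.8 and 24.6 CPM in the control pools (limma adjusted p = 0.115; 3 of 17 alternatives called it higher). Cox6c had 88.6 ± 3.80 CPM in CDKO and 83.7 ± 7.86 CPM in control pools (SD, n = 3 each). Cox7a2 had 71.9 ± 4.06 CPM in CDKO and 75.8 ± 6.08 CPM in control pools. Cox7c had 11.6 ± 0.904 CPM in CDKO and 12.2 ± 0.847 CPM in control pools. None of these passed, and the groups overlapped for each.

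Several complex IV subunits exist as a widely expressed form and a form known from particular tissues, and most of the tissue forms were near 0. Cox4i2, the form of subunit 4 known from lung, had 3.56, 3.25 and 3.18 CPM in the CDKO pools, against 3.61, 2.52 and 3.21 CPM in the control pools and missed the threshold (limma adjusted p = 0.651). Per transcript length, Cox4i2 stood at 4.58 CPM per kb in CDKO and 4.28 CPM per kb in control pools, and Cox4i1 at 495 CPM per kb in CDKO and 532 CPM per kb in control pools. Cox7a1, the muscle form of 7a, had 0.365, 0.506 and 0.538 CPM in the CDKO pools, against 0.537, 0.713 and 0.567 CPM in the control pools and missed the threshold (adjusted p = 0.458). Cox6a2, the muscle form of 6a, and Cox7b2, known from testis, had too few reads to be tested, with at most 0.0482 CPM and 0.110 CPM in any library. Cox8b and Cox8c had no read in any library. Cox6b2, the form of 6b known from testis, was the exception. It had 33.3, 31.9 and 35.6 CPM in CDKO pools 1 to 3, against 24.7, 25.1 and 25.6 CPM in control pools 1 to 3 (log2 difference 0.40, SE 0.08, limma adjusted p = 0.00114), and was higher in every CDKO pool, as Cox6b1 was. Per transcript length Cox6b2 made up 23.5%, 23.4% and 24.8% of the summed Cox6b1 and Cox6b2 level in the CDKO pools, against 23.7%, 24.4% and 22.7% in the control pools, so the shares overlapped while both levels rose. No window of 50 bases of the Cox6b2 transcript occurs in another annotated gene, and no other annotated exon overlaps its exons.

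**Figure D3:**
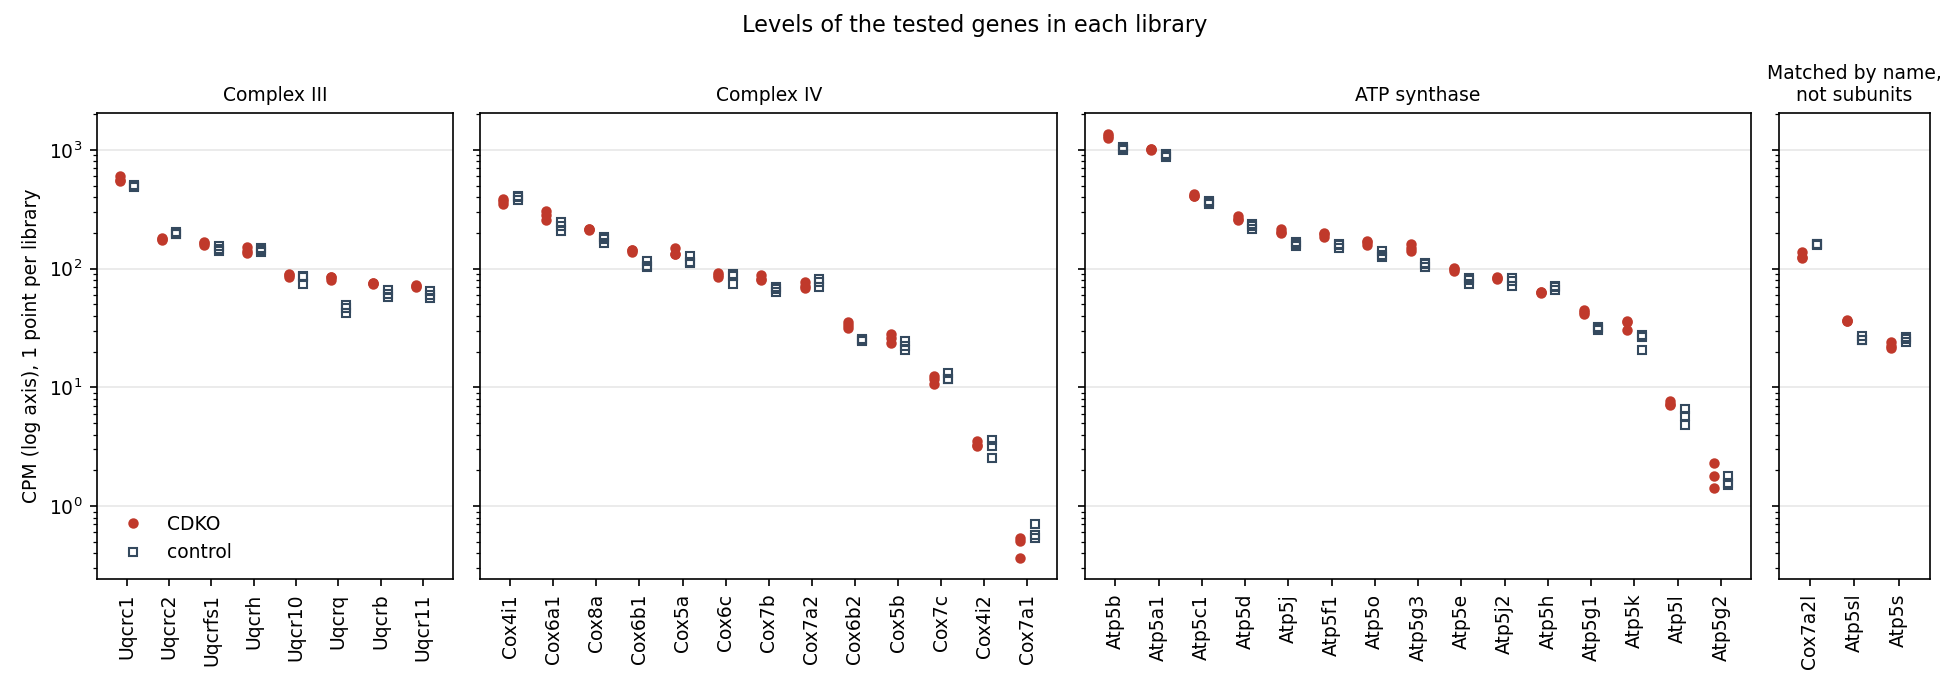
CPM of each tested gene (horizontal axis, by complex and falling mean level) in every library (vertical log axis), with CDKO pools as filled circles left of control pools as open squares. Levels span from under 1 CPM for Cox7a1 to over 1000 CPM for Atp5b, and the 3 CDKO points of Uqcrq stand clear above its 3 control points.

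All 5 genes of the F1 part of ATP synthase, where ATP is made, rose. Atp5b, the catalytic beta subunit (chromosome 10, 128083273 to 128090391), had 1357, 1307 and 1264 CPM in CDKO pools 1 to 3, against 1059, 999.8 and 1011 CPM in control pools 1 to 3 (log2 difference 0.36, SE 0.04, limma adjusted p = 2.64e-05). Atp5a1, the alpha subunit that alternates with beta around the F1 head, had 1018, 1013 and 1001 CPM in CDKO pools 1 to 3, against 929, 878 and 905 CPM in control pools 1 to 3 (log2 difference 0.16, SE 0.04, limma adjusted p = 0.00321). Both were separated from control in every pool, at 1.28 times the control mean for Atp5b and 1.12 times for Atp5a1. The ratio of Atp5b to Atp5a1 reads was 1.33, 1.29 and 1.26 in the CDKO pools, against 1.14, 1.14 and 1.12 in the control pools. Atp5c1, the gamma subunit that forms the turning shaft, had 425, 406 and 408 CPM in the CDKO pools, against 372, 350.4 and 363 CPM in the control pools (log2 difference 0.19, SE 0.04, limma adjusted p = 0.00154). Atp5d (delta) and Atp5e (epsilon), which join the shaft to the ring in the membrane, rose to 268 and 98.7 CPM in CDKO, against 228 and 79.5 CPM in control pools (log2 differences 0.23 and 0.31, limma adjusted p = 0.00147 and 0.000514). Per transcript length Atp5b had the highest mean of all 43 genes in CDKO pools, at 683 CPM per kb in CDKO and 534 CPM per kb in control pools. Cox6a1 (496 CPM per kb in CDKO and 398 CPM per kb in control pools) and Cox4i1 came next in CDKO pools, before Atp5a1 (409 CPM per kb in CDKO and 366 CPM per kb in control pools), and Cox4i1 at 532 CPM per kb was close to Atp5b in control pools.

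Of the 4 genes of the peripheral stalk, which holds the F1 head still, 3 rose. Atp5j (subunit F6) had 215, 199 and 205 CPM in the CDKO pools, against 162, 155 and 167 CPM in the control pools (log2 difference 0.35, SE 0.05, limma adjusted p = 6.40e-05). Atp5f1 (subunit b) had 201, 185 and 194 CPM in the CDKO pools, against 148, 158 and 161 CPM in the control pools (log2 difference 0.31, SE 0.05, limma adjusted p = 0.000206). Atp5o (the oligomycin sensitivity subunit) rose to 165 CPM in CDKO, against 132 CPM in control pools (log2 difference 0.32, SE 0.05, limma adjusted p = 0.000318). These were higher in every CDKO pool, at 1.28, 1.24 and 1.25 times the control mean. Atp5h (subunit d), whose promoter is printed above, was the exception, with 63.9, 62.4 and 63.9 CPM in CDKO pools 1 to 3, against 71.8, 65.8 and 69.9 CPM in control pools 1 to 3. Every CDKO value was below every control value, with a ratio of means of 0.916, and the gene did not pass (log2 difference -0.12, SE 0.06, limma adjusted p = 0.0791; 0.0523 to 0.446 in the alternatives).

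The 3 genes Atp5g1, Atp5g2 and Atp5g3 encode the same mature c subunit of the rotating ring behind different targeting sequences. Atp5g3 had 160.3, 150.4 and 139.6 CPM in CDKO pools 1 to 3, against 111, 104 and 109 CPM in control pools 1 to 3 (log2 difference 0.47, SE 0.06, limma adjusted p = 2.96e-05). Atp5g1 had 44.97, 41.2 and 43.02 CPM in CDKO pools 1 to 3, against 32.1, 30.2 and 31.5 CPM in control pools 1 to 3 (log2 difference 0.45, SE 0.07, limma adjusted p = 0.000257). They were 1.39 and 1.38 times the control level, the largest ratios among the ATP synthase genes. Atp5g2 had 2.31, 1.81 and 1.43 CPM in the CDKO pools, against 1.56, 1.51 and 1.79 CPM in the control pools and missed the threshold (limma adjusted p = 0.564). Per transcript length Atp5g3 made up 73.6%, 74.2% and 72.2% of the summed level of the 3 genes in the CDKO pools, against 73.0%, 72.9% and 72.9% in the control pools. Atp5g1 made up 24.7%, 24.4% and 26.6% in the CDKO pools, against 25.3%, 25.4% and 25.2% in the control pools. The shares overlapped between groups although the levels of Atp5g1 and Atp5g3 rose, and they rest on Atp5g1 and Atp5g2, which share most of their sequence with other annotated genes. Among the small membrane subunits that shape the dimer of the enzyme, Atp5k (subunit e) rose to 33.9 ± 3.19 CPM in CDKO, against 24.8 ± 3.64 CPM in control pools (log2 difference 0.44, SE 0.12, limma adjusted p = 0.00561). Atp5l (subunit g) had 7.70, 7.28 and 7.08 CPM in the CDKO pools, against 4.86, 5.79 and 6.61 CPM in the control pools, with no overlap, and missed the threshold (limma adjusted p = 0.0715; called higher in 5 of 16 alternatives, with 0.0101 to 0.220 over them). Atp5j2 (subunit f) had 83.6 ± 1.28 CPM in CDKO and 78.2 ± 5.90 CPM in control pools (SD, n = 3) and missed the threshold (limma adjusted p = 0.184), though it passed after the GC and length correction (log2 difference 0.16, limma adjusted p = 0.0423).

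The 3 genes that carry the names but are no structural subunits of these complexes behaved differently from each other. Cox7a2l, which encodes a factor that joins complexes III and IV into supercomplexes, fell. It had 124, 137 and 125 CPM in CDKO pools 1 to 3, against 161, 160.4 and 159 CPM in control pools 1 to 3 (log2 difference -0.32, SE 0.05, limma adjusted p = 0.000214), with every CDKO pool below every control pool. Its relative Cox7a2, the complex IV subunit, had 70.7, 68.6 and 76.5 CPM in the CDKO pools, against 81.5, 69.4 and 76.5 CPM in the control pools and did not pass. Atp5sl, known in current annotation as Dmac2, had 37.2, 35.9 and 35.9 CPM in CDKO pools 1 to 3, against 25.2, 27.01 and 25.1 CPM in control pools 1 to 3 (log2 difference 0.48, SE 0.08, limma adjusted p = 0.000242), the second-largest log2 difference of the 39 genes. In human cells its product is known from the assembly of complex I. Atp5s, coupling factor B, had 22.5, 21.5 and 24.1 CPM in the CDKO pools, against 24.1, 25.3 and 26.5 CPM in the control pools and missed the threshold (limma adjusted p = 0.162).

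Many genes of this family have processed pseudogenes, and the number of reads that can be placed on them depends on shared sequence. For each gene every window of 50 bases of a principal transcript (GENCODE M21) was looked up in the transcripts of all other genes. The read length is not given in the sources used here. For 22 of the 43 genes no window was shared, and for 10 genes over 20% were. Every window of Atp5g2 was shared. The share was 68.5% for Atp5l, 66.0% for Atp5g1, 53.0% for Cox7c, 50.5% for Atp5h and 43.2% for Uqcrb. Atp5l shared windows with 13 other genes, 12 of them annotated as pseudogenes. In the plot of shared windows against level, Atp5g2, Atp5l and Cox7c were among the lowest of the tested genes per transcript length, at 4.19, 13.5 and 21.5 CPM per kb in CDKO pools. Whether reads that fit several places were dropped is not given in the sources used here, so the levels of these 10 genes and their order are uncertain. Among the 10, 4 rose and none fell, and among the 18 tested genes with no shared window 11 rose and 1 fell. Over all tested genes 31.1% rose and 35.2% fell. The median log2 differences were 0.23 for the 10 and 0.18 for the 18. These sets were not tested against each other. Libraries of this chemistry do not mark the strand. Exons of other genes overlap 47.9% of the exonic bases of Atp5o, 19.7% of those of Uqcrc2, 12.8% of those of Cox5a and 12.7% of those of Atp5j. Smaller shares are overlapped in several other genes of the set. Reads of the partners cannot be told apart there. For these named genes the partner with the longest overlap lies on the opposite strand. It is Gm15976 for Atp5o, Pdzd9 for Uqcrc2, Gm26631 for Cox5a and Gabpa for Atp5j.

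**Figure D4:**
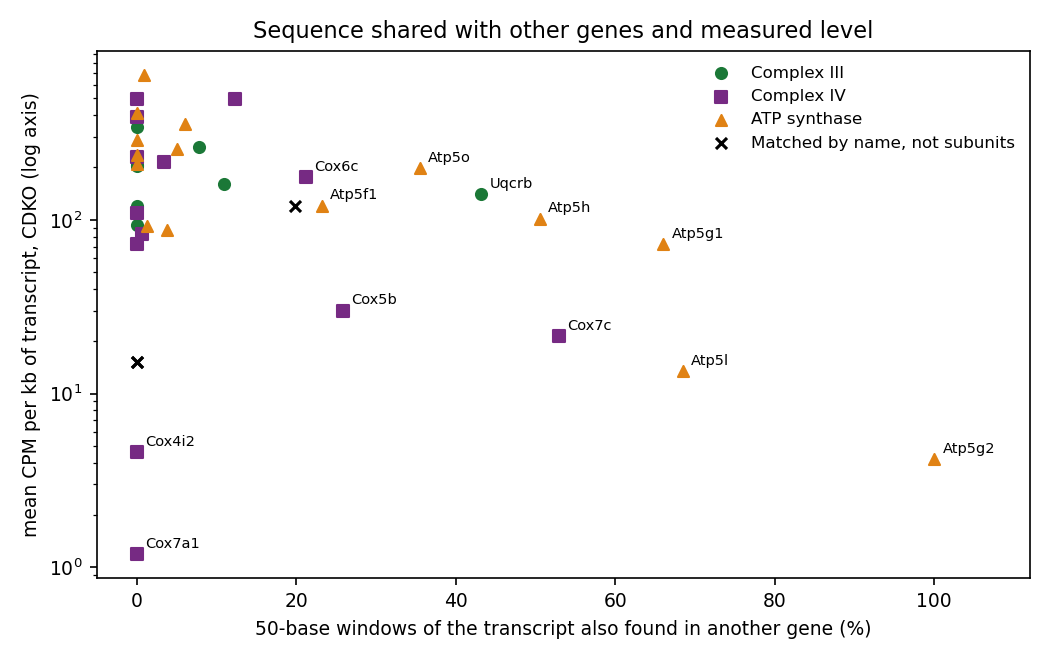
Share of the 50-base windows of each gene's transcript that occur in another annotated gene (horizontal axis, percent) against its mean level in CDKO pools per kb of transcript (vertical log axis), for the 39 tested genes by complex. Atp5g2, with all windows shared, and Atp5l at 68.5% lie at 4.19 and 13.5 CPM per kb, and the 2 genes below 10 CPM per kb with no shared window are Cox4i2 and Cox7a1.

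Other parts and partners of the complexes were read from the same fit, and each count that follows stands against 31.1% of all tested genes that rose and 35.2% that fell. Of 8 subunits, inhibitors and carriers outside the naming rule 3 rose and 1 fell. Cyc1, cytochrome c1 of complex III, had 183, 181 and 179.6 CPM in CDKO pools 1 to 3, against 155, 156 and 154 CPM in control pools 1 to 3 (log2 difference 0.22, SE 0.04, limma adjusted p = 0.000508), with the groups far apart relative to their spread. Usmg5, a small subunit of ATP synthase, had 15.2, 15.6 and 16.97 CPM in the CDKO pools, against 11.5, 12.3 and 12.7 CPM in the control pools (log2 difference 0.37, SE 0.11, limma adjusted p = 0.0123). Higd2a, known from complex IV and supercomplex assembly, had 38.98, 35.4 and 36.1 CPM in the CDKO pools, against 29.8, 28.4 and 30.7 CPM in the control pools (log2 difference 0.31, SE 0.08, limma adjusted p = 0.0052). Higd1a, its relative induced by low oxygen, was the gene that fell (log2 difference -0.27, SE 0.10, limma adjusted p = 0.0398), a call kept in 9 of 17 alternatives (0.0131 to 0.136 over them). Cycs, cytochrome c, had 9.07, 7.96 and 8.79 CPM in the CDKO pools, against 5.62, 6.99 and 7.58 CPM in the control pools with no overlap and missed the threshold (limma adjusted p = 0.0672). The other 3, Ndufa4, Atpif1 and 2010107E04Rik, did not pass.

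Of 21 tested complex IV assembly genes 10 rose and 2 fell, with a median log2 difference of 0.07. Cox10, which makes the precursor of heme A, had 65.4, 59.9 and 61.6 CPM in CDKO pools 1 to 3, against 25.1, 28.3 and 25.5 CPM in control pools 1 to 3 (log2 difference 1.21, SE 0.08, limma adjusted p = 3.63e-07). Cox18, which inserts the Cox2 protein into the membrane, had 44.9, 44.7 and 49.3 CPM in CDKO pools 1 to 3, against 17.6, 21.7 and 19.2 CPM in control pools 1 to 3 (log2 difference 1.21, SE 0.09, limma adjusted p = 1.32e-06). Lrpprc, which stabilises mitochondrial messenger RNAs, had 180.2, 169.9 and 186 CPM in the CDKO pools, against 119.7, 115 and 125 CPM in the control pools (log2 difference 0.57, SE 0.05, limma adjusted p = 3.63e-06). Each was higher in all 3 CDKO pools, at 2.37, 2.37 and 1.49 times the control mean. Cox14 and Cox20 were the 2 that fell, and the call of Cox20 was kept in 12 of 17 alternatives (0.00854 to 0.147 over them). Of 5 complex III assembly genes 2 rose and none fell. Bcs1l, which places the Rieske protein, had 71.2, 63.3 and 62.6 CPM in the CDKO pools, against 49.5, 48.8 and 46.9 CPM in the control pools (log2 difference 0.43, SE 0.07, limma adjusted p = 0.000191). Ttc19, which clears fragments of that protein, had 38.6, 32.98 and 36.96 CPM in the CDKO pools, against 29.2, 29.04 and 28.3 CPM in the control pools (log2 difference 0.31, SE 0.08, limma adjusted p = 0.00607). Both were higher in every CDKO pool. Uqcc1 had 76.7, 64.6 and 60.9 CPM in the CDKO pools, against 61.5, 62.6 and 55.00 CPM in the control pools and missed the threshold (limma adjusted p = 0.108). None of the 3 ATP synthase assembly genes passed. Atpaf1, a chaperone of the beta subunit, had 12.1, 14.3 and 15.5 CPM in the CDKO pools, against 16.9, 16.1 and 16.1 CPM in the control pools (limma adjusted p = 0.117). Atpaf2, a chaperone of the alpha subunit, had 50.8, 50.2 and 46.2 CPM in the CDKO pools, against 49.2, 50.8 and 51.9 CPM in the control pools (limma adjusted p = 0.568). Tmem70, known from the assembly of the membrane ring, had 96.7, 91.7 and 103 CPM in the CDKO pools, against 97.98, 88.6 and 91.1 CPM in the control pools (limma adjusted p = 0.343).

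Of 4 carriers that supply ATP synthase with phosphate or exchange its product, 3 rose and 1 fell. Slc25a5, the adenine nucleotide carrier of dividing cells, had 710.2, 676 and 715 CPM in the CDKO pools, against 539, 513 and 527 CPM in the control pools (log2 difference 0.41, SE 0.04, limma adjusted p = 6.04e-06). Slc25a3, the phosphate carrier, had 473, 432 and 417 CPM in the CDKO pools, against 350.0, 329 and 318 CPM in the control pools (log2 difference 0.40, SE 0.05, limma adjusted p = 5.34e-05). Slc25a4, the muscle form of the nucleotide carrier, rose to 290.0 CPM in CDKO, against 260.4 CPM in control pools (log2 difference 0.15, SE 0.05, limma adjusted p = 0.0155; 0.000154 to 0.0689 over its alternatives, of which 15 of 17 called it). Slc25a31, the nucleotide carrier known from germ cells, fell to 0.0609, 0.121 and 0.187 CPM in the CDKO pools, against 4.24, 4.06 and 3.47 CPM in the control pools (log2 difference -2.13, SE 0.15, limma adjusted p = 6.59e-07).

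Of 18 tested regulators of mitochondrial gene expression 6 rose and 3 fell, with a median log2 difference of 0.05. The share that rose is close to the 31.1% of all tested genes, and the share that fell is below their 35.2%. Pprc1, a coactivator of the PGC-1 family, had 156, 152 and 178 CPM in CDKO pools 1 to 3, against 91.3, 104 and 100.3 CPM in control pools 1 to 3 (log2 difference 0.71, SE 0.07, limma adjusted p = 5.65e-06). Ppargc1b, another member, had 41.8, 34.02 and 35.4 CPM in the CDKO pools, against 24.8, 24.1 and 20.02 CPM in the control pools (log2 difference 0.67, SE 0.11, limma adjusted p = 0.000233). Nrf1, the factor whose letters were searched in the promoters, had 118, 119 and 113 CPM in the CDKO pools, against 91.7, 96.97 and 92.5 CPM in the control pools (log2 difference 0.31, SE 0.05, limma adjusted p = 0.000192). These 3 were higher in every CDKO pool, at 1.64, 1.61 and 1.24 times the control mean. Gabpa, named here after its values were seen because it overlaps Atp5j, had 124, 104 and 115 CPM in the CDKO pools, against 71.6, 90.8 and 75.9 CPM in the control pools (log2 difference 0.53, SE 0.09, limma adjusted p = 0.000266). Its partner subunit gene Gabpb1 fell (log2 difference -0.14, SE 0.05, limma adjusted p = 0.0298), a call kept in 11 of 17 alternatives (0.0184 to 0.124 over them). Ppargc1a and Yy1 also rose, and the call of Yy1 was kept in 15 of 17 alternatives (0.000605 to 0.0593 over them). Polg2, a subunit of the mitochondrial DNA polymerase, fell (log2 difference -0.41, SE 0.12, limma adjusted p = 0.00897), as did Polg (limma adjusted p = 0.0485), whose groups overlapped and whose call was kept in 8 of 17 alternatives (0.0091 to 0.676 over them).

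For the neighbouring mitochondrial gene sets, chosen by name, 16 of 35 tested complex I genes rose and 2 fell. Of complex II genes 1 of 4 rose and none fell, and of mitochondrial ribosomal protein genes 29 of 74 rose and 10 fell. The median log2 differences were 0.14, 0.12 and 0.11, in that order. Ndufa4, given above among the genes outside the naming rule, is by its name also counted with complex I, as a gene that did not pass. Among all tested genes 31.1% rose and 35.2% fell, with a median log2 difference of -0.02. The shares of complex II and mitochondrial ribosomal protein genes that rose lie near or somewhat above that of all genes. In each of these neighbouring sets the share that fell lies below that of all genes and the median above theirs. The same holds for the complex III, complex IV and ATP synthase genes. The complex II gene that rose was Sdhb, the iron-sulfur subunit, with 191, 186 and 199 CPM in the CDKO pools, against 127, 122 and 131 CPM in the control pools (log2 difference 0.60, SE 0.05, limma adjusted p = 1.46e-06). Sdha, the flavoprotein subunit, had 578, 552 and 550.3 CPM in the CDKO pools, against 519, 507 and 543 CPM in the control pools (limma adjusted p = 0.0534). Sdhc, a membrane anchor, had 83.3, 82.5 and 73.9 CPM in the CDKO pools, against 76.01, 67.6 and 73.6 CPM in the control pools (limma adjusted p = 0.084). Both missed the threshold. No difference between these sets and the complexes III and IV and ATP synthase genes was tested.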

How the data were processed

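RNA was sequenced from sorted mouse HSC in 3 CDKO and 3 control pools. Per the labels' protocols, RNA was isolated with micro columns, amplified with SMARTer Ultra Low Input v3 chemistry and made into Nextera XT libraries. The tools TopHat2, HTSeq and DESeq2 and the build mm10 are named without version per the submitters' processing notes, and the gene annotation is not given in the sources used here. The deposited values per library are CPM, each column summing to 1000000. Dividing by the value of 1 read gave whole reads for 100.0% of values above 0 (to within 0.01 of a read), and these reads gave the depths and the count tests. The deposited baseMean is a signal, the mean of counts scaled by size factors. The deposited log2 fold change and its error run from CDKO to control, and their sign was reversed here. The deposited stat is a score, the fold change over its error, and the deposited p-value and its adjusted form come from DESeq2 by the authors. From these only the call counts were taken.

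The test was limma 3.58.1 (R 4.3.3, log2(CPM + 1), eBayes with trend), CDKO minus control, two-sided, over 13732 genes with a mean of at least 10 reads. P-values were adjusted by Benjamini-Hochberg over all of them, at a threshold of 0.05. A fold difference on this scale understates the change of low genes, ratios are of mean CPM, and errors are SD or the standard error of the coefficient. Left out were 12 genes whose symbol had become a date and 2 rows sharing a symbol. The 43 genes and the lists were chosen with earlier results of these data known. Values per library were given by rule for core subunits, isoform families, the 4 smallest p in each complex and the 3 smallest p in each other pathway list. Further genes were named after their values were seen. List members not in the table were not analysed here. Tried besides were a replicate block, each library left out, no filter, at least 50 reads or 10 CPM, pseudocounts of 0.5 and 5, TMM and quantile scaling, the count tests edgeR 4.0.16 (4288 genes higher, 4499 lower) and DESeq2 1.42.0 (4673 and 4833) on the recovered reads, a loess correction for GC content and transcript length (available for 99.1% of tested genes), a 1.5-fold minimum and a threshold of 0.1. The limma step was also run on simulated counts, in which far fewer genes changed than passed here, and no result rests on that run. Coordinates are from GENCODE M21 (mm10) and promoters from RefSeq.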

Additional observations from a re-analysis of the deposited data

How the results depend on the processing

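Of the 25 genes that passed, 24 kept their direction and call in all 17 refits, and the exception was Uqcrfs1. Of 658 gene-and-setting pairs for the 39 tested genes, 639 kept their side of the threshold, 4 lost a call (all Uqcrfs1), 15 gained one and none changed direction with a call. Leaving out 1 library at a time, 22 to 24 genes rose, 2 to 3 fell, and the median log2 difference ran from 0.19 to 0.25. With a 1.5-fold minimum, 1 gene rose and 0 fell. At an adjusted p of 0.1, 24 rose and 4 fell. After the GC and length correction 27 rose and 2 fell, with a median of 0.30, while the median of all genes moved from -0.02 to 0.05, and the split over all genes was 5059 higher and 4144 lower in place of 4264 and 4832. Quantile normalization gave 25 and 3, DESeq2 25 and 3, and edgeR 23 and 2. With the replicate block 23 rose and 3 fell. The replicate numbers are not said to pair the pools, and the correlations of deviations between same-numbered pools were 0.0518, 0.0483 and -0.012, so not every pool correlated best with its own number. Groups of 3 pools limit precision, and genes near 1 CPM or sharing most of their sequence with other genes are measured least well.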
